A study of Arabidopsis thaliana with 36 samples.

Results

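Genes of Arabidopsis thaliana were selected whose transcripts were higher in both outer cell populations of the root, the epidermis and the columella, than in all inner ones. A probe set of the ATH1 array was a member when the lower of its epidermis and columella means, as log2(signal + 16) on the 3 arrays of each population on standard medium, lay at least 1.0, a 2-fold difference, above the highest mean of cortex, endodermis, stele and protophloem. Of 22746 probe sets other than Affymetrix controls, 157 met this rule, which is 0.690%. Exactly 1 gene was named for 90 of the members, several genes for 4 and no gene for 63. Each named gene had 1 member probe set.

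The study measured how root cell types of the ecotype Columbia respond to salt, on 36 arrays in 12 groups of 3. Each population was sorted by fluorescence from digested roots of seedlings 6 days old, from a line with GFP in part of the root: WER::GFP for the epidermis with the lateral root cap, PET111 for the columella, CORTEX for the cortex, SCR::GFP for the endodermis with the quiescent centre, WOL::GFP for the stele and S32 for the protophloem. Every line was used both on standard medium and after a transfer to 140 mM NaCl for 1 h, and the enzymatic removal of cell walls was common to all groups. Nothing in the labels says whether replicates are separate plantings, so the error behind each p-value may be technical only. The population called epidermis below thus also holds lateral root cap cells, and the arrays do not separate its cell types.

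The epidermis covers the root and forms the root hairs, while the root cap covers the tip, with the columella at its centre and the lateral root cap along its flanks. Columella cells sense gravity and, as they age, are shed with a secreted mucilage rich in pectin. Both tissues face the soil, and their secreted products include wall-modifying enzymes, lectins, peroxidases and defence proteins.

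The labels of these populations could be checked on few markers, because only 11 of 97 marker and pathway genes listed for this purpose had a probe set of their own. None of the 11 was a member. The summed signal of 2 root cap markers, the polygalacturonase RCPG (AT1G65570) and the aspartic protease PASPA3, ranged from 4398 to 8653 over the columella arrays on standard medium and from 500 to 790 over the epidermis arrays. The sum also was 1300 to 2444 in protophloem and 767 to 1091 in stele there. PASPA3 (AT4G04460) alone was not highest in columella, with means of 703 in columella, 867 in stele and 1598 in protophloem. With salt this sum was 7404 to 13523 in columella and 5172 to 7176 in epidermis. The sum of 3 epidermis and root hair markers (TRY and the expansins EXPA7 and EXPA18) was 950 to 1002 in epidermis and 109 to 329 in columella on standard medium, and 284 to 1080 and 64.7 to 256 with salt. On standard medium it was 216 to 2242 in stele, with a median of 229, and at most 401 in the other inner populations. With salt it was 423 to 844 in cortex and reached 1383 in stele, 597 in endodermis and 501 in protophloem, so it did not set the epidermis apart there. Of the stele markers, PHV had means of 373 in columella and 381 in stele on standard medium, so it did not set these populations apart. The other, LHW, had means of 322 in columella and 596 in stele there. The lists for the outermost layer, the endodermis, cutin and wax, nutrient uptake and triterpene clusters had no gene with its own probe set.

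Several replicate 3 arrays stood apart in the members' level. The mean of log2(signal + 16) over the members was 8.20 on cortex salt replicate 3, against 6.77 and 6.94 on replicates 1 and 2. It was 6.97 on stele standard replicate 3 against 6.10 and 5.92, and 6.80 on endodermis standard replicate 3 against 5.81 and 5.78. Among the outer arrays, columella salt replicate 3 had 9.38 against 8.87 and 8.81. Some markers of the outer cells were also higher on some of these arrays. RCPG (AT1G65570) had a signal of 1552 on cortex salt replicate 3 against 160 and 210, and EXPA7 had 1092 on stele standard replicate 3 against 116 and 111. TRY went the other way on cortex salt replicate 3, with 7.09 against 39.6 and 44.5. RCPG on columella salt replicate 3, at 6367, lay between the other values of 6041 and 10258. EXPA7 was high on other replicate 3 arrays too, with 961 on stele salt against 30.8 and 26.9. The part of other cell types in the replicate 3 arrays was not tested. The salt responses in cortex, stele, endodermis and columella are given with and without the array concerned. For the other main counts of calls, ranges over arrays left out in turn are given at the end. The 5' to 3' GAPDH signal ratio, a measure of how completely transcripts were copied, went from 1.52 ± 0.163 (SD, n = 3) on the standard arrays of epidermis to 0.248 ± 0.140 on its salt arrays. For columella these means were 0.173 ± 0.112 and 0.142 ± 0.0803.

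**Figure D1:**
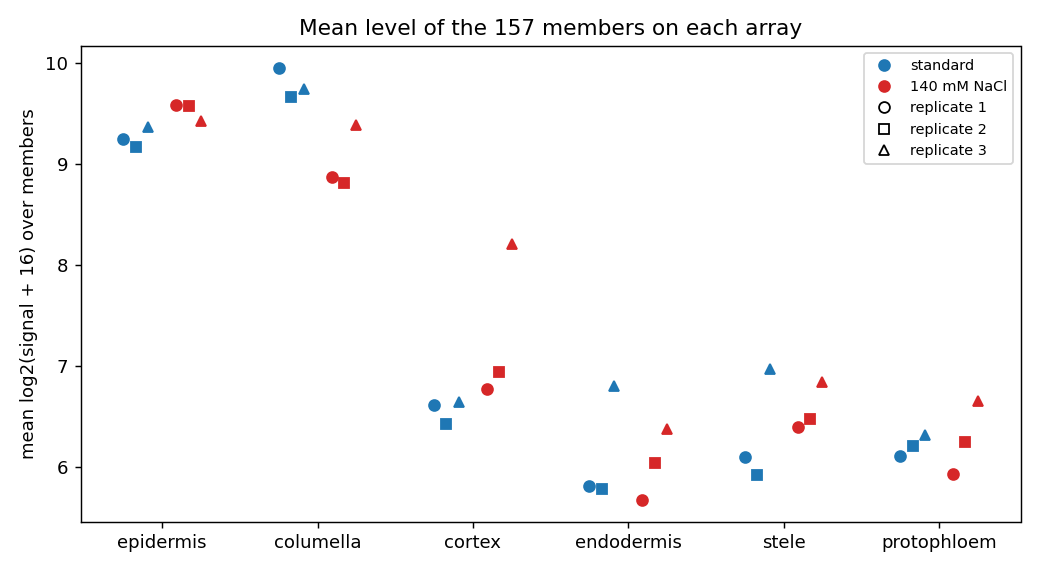
Mean log2(signal + 16) over the 157 members on each of the 36 arrays, by population, with colour for the medium and shape for the replicate number. The epidermis and columella arrays lie between 8.81 and 9.95 and all inner arrays at or below 8.20, the level of cortex salt replicate 3.

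On standard medium, where the members were chosen, the outer-minus-inner difference defined by the rule ran from 1.00 to 4.85 on the log2 scale, with a median of 1.82 against -0.83 over all probe sets. These values are a description, with no test, because they chose the members. As part of that description, every epidermis and columella array lay above every inner array for 144 of the 157 members. The rule itself favours such a separation on these arrays, and no share over all probe sets is given for it. The members just inside the limit were the transporter gene AT1G15170 of the MATE family at 1.00, AT3G27880 at 1.01 and AT5G02420 at 1.02, and those just outside were AT5G44440 and the glucosyltransferase gene UGT72E1 at 0.97 and AT1G71530 at 0.96. Columella was the higher of the outer populations for 97 members and epidermis for 60. The lower of them was within 2-fold of the higher for 94 members.

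The salt arrays, which the rule did not use, gave a test of the same difference. On them both outer populations were above each of the 4 inner ones for 84 members (53.5%), with all 8 contrasts called at an adjusted p under 0.05 by limma with Benjamini-Hochberg adjustment over 17633 probe sets tested. Over all probe sets tested the share was 1.42%. All 157 members had passed the filter on low signals. The salt arrays of both outer populations were all above those of the inner populations for 82 members, against 1.83% of all probe sets tested. The difference reached the rule's limit of 1.0 on the salt arrays for 91 members (58.0%), against 1.01% of all probe sets. The same 91 are 39.7% of the 229 probe sets that meet the rule on the salt arrays.

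The difference was smaller with salt than on standard medium for 123 members and larger for 34. Its median with salt was 1.25, over a range of -1.27 to 4.09, against -0.72 over all probe sets, and it was above 0 for 132 members against 7.25% of all probe sets. Members chosen for a large difference on one set of arrays can have a smaller one on any other set, and the size of that effect was not tested.

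The single contrasts show where members were lost. Epidermis was called above endodermis for 148 members (14.2% of all probe sets tested), above protophloem for 148 (15.8%), above stele for 140 (8.55%) and above cortex for 133 (23.8%). Columella was called above endodermis for 141 (13.7%), above protophloem for 131 (12.1%), above stele for 121 (9.85%) and above cortex for 106 (18.9%). The columella with the cortex was thus the pair with the fewest calls. Without cortex salt replicate 3 the number called in all 8 contrasts was 92, against 1.52% of all probe sets tested. With replicates 1 and 2 only, a setting added after the data were seen, it was 99, against 1.65%.

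**Figure D2:**
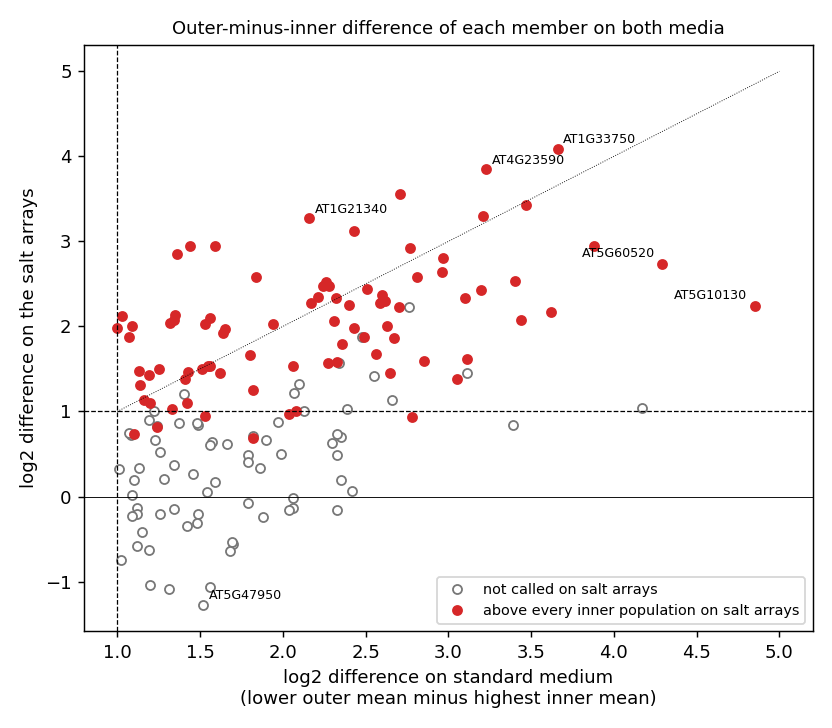
Each point is 1 of the 157 members, with the outer-minus-inner difference on standard medium on the x axis and that on the salt arrays on the y axis, both in log2 units. Dashed lines mark the rule's limit of 1.0, the dotted line marks equal values, and filled points are the 84 members called above every inner population on the salt arrays; 123 points lie below the dotted line.

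In all, 49 members could be placed by general knowledge into 9 groups of related function, formed after the members were known. The largest of these groups was 12 wall proteins and enzymes, 5 of which were called above every inner population on the salt arrays, with a median difference of 2.54 on standard medium and 1.29 with salt. It was led by AT5G10130, of the Ole e 1 and extensin family of secreted proteins, which had the largest difference of the members on standard medium, 4.85 or 28.9-fold. The signals of AT5G10130 in epidermis were 4251, 4552 and 4941 on standard medium and 4923, 3975 and 3568 with salt. In columella they were 9225, 4829 and 2964 on standard medium and 2310, 1810 and 2420 with salt. The lowest outer array of AT5G10130 was thus 1810. Its 12 inner arrays ran from 2.72 through a median of 129 to 309 on standard medium. With salt they ran from 6.07 through 84.6 to 1073, the highest being cortex replicate 3. The outer and inner arrays did not overlap on either medium, and the difference with salt was 2.24, or 4.71-fold (largest of the 8 adjusted p-values 0.00599).

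The multicopper oxidase gene sks15 (AT4G37160), related to SKU5, which acts in directional root growth, had signals of 2924, 2773 and 3203 in epidermis and 4026, 2941 and 1976 in columella on standard medium. With salt the sks15 signals were 2691, 2378 and 2634 in epidermis and 289, 222 and 477 in columella. The epidermis salt arrays of sks15 all lay slightly below its standard ones, while all 3 columella salt arrays were far below the lowest standard array. The change in columella was -3.13 on the log2 scale (SE 0.69, adjusted p = 0.00294), and the value in epidermis was -0.21 (SE 0.69, adjusted p = 0.864). Its inner arrays reached 200 on standard medium and, on cortex salt replicate 3, 725. The columella and inner arrays of sks15 overlapped with salt, where 7 of the 8 contrasts were called. Its relative sks16 had differences of 2.66 and 1.13 on the 2 media, and 7 of the 8 contrasts were called for it as well.

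Both members that encode expansins, which loosen walls during growth, had high outer signals on standard medium. EXPA4 (AT2G39700) had 598, 430 and 283 in epidermis and 458, 1206 and 732 in columella on standard medium. With salt the EXPA4 signals were 51.5, 60.1 and 44.9 in epidermis and 57.3, 62.8 and 203 in columella. The salt arrays lay below the standard arrays in both populations, and 2 of the 3 epidermis salt arrays were above the highest inner salt array, 49.1, and the third below it. EXPA4 fell by 2.68 (SE 0.35, adjusted p = 1e-06) in epidermis and by 2.81 (SE 0.35, adjusted p = 4.6e-06) in columella, and its outer-minus-inner difference went from 2.35 to 0.20. EXPA9 (AT5G02260) had 3109, 2922 and 3185 in epidermis and 986, 1949 and 1274 in columella on standard medium, and 1657, 1768 and 1846 and 1173, 1896 and 1232 with salt. Its inner arrays reached 542 on standard medium and 341 with salt, so they stayed below the outer ones on both media. The salt values of EXPA9 were -0.80 (SE 0.42, adjusted p = 0.163) in epidermis and 0.05 (SE 0.42, adjusted p = 0.948) in columella, while EXPA9 fell by 1.30 in cortex (SE 0.42, adjusted p = 0.0162), and the outer-minus-inner difference was 1.59 and 2.94.

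Other wall genes act on pectin, the gel of the wall matrix. AT5G51520, of the pectin methylesterase inhibitor family, had 689, 562 and 863 in epidermis and 1491, 664 and 1484 in columella on standard medium, and 1512, 1364 and 1144 and 965, 1056 and 1571 with salt. All outer arrays of AT5G51520 lay above its inner arrays, which reached 79.3 on standard medium and 759 on cortex salt replicate 3. A second gene of that family, AT5G62340, fell in columella by 2.50 (SE 0.68, adjusted p = 0.0147), from 5010, 3432 and 3182 to 630, 372 and 1207. The pectin methylesterase gene AT5G04970 was called in 7 of the 8 contrasts, and the pectate lyase gene AT3G24670 in 5. The wall protein gene AT2G41800, of a family with a DUF642 domain, was called in all 8, with a difference of 2.77 on standard medium and 2.92 with salt.

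A pair of genes for small secreted proteins related to STIG1 of the stigma differed in their response. AT1G50720 had 219, 178 and 205 in epidermis and 634, 440 and 375 in columella on standard medium, and 514, 511 and 196 and 50.0, 33.1 and 71.7 with salt. All columella salt arrays of AT1G50720 lay far below the standard ones, and 2 of the 3 epidermis salt arrays lay above them. In columella AT1G50720 fell by 2.89 (SE 0.42, adjusted p = 4.2e-05), and its value in epidermis was 0.85 (SE 0.42, adjusted p = 0.135). AT4G26880 had 383, 409 and 640 in epidermis and 4715, 1763 and 2749 in columella on standard medium, and 2441, 1803 and 1477 and 3503, 2935 and 3846 with salt. AT4G26880 rose in epidermis by 1.97 (SE 0.61, adjusted p = 0.0144), a call lost at adjusted p-values of 0.0510 to 0.0642 without epidermis standard replicate 1 or 2 or salt replicate 1 and at 0.0572 with the GAPDH ratio as a covariate, and in columella its value was 0.26 (SE 0.61, adjusted p = 0.802).

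**Figure D3:**
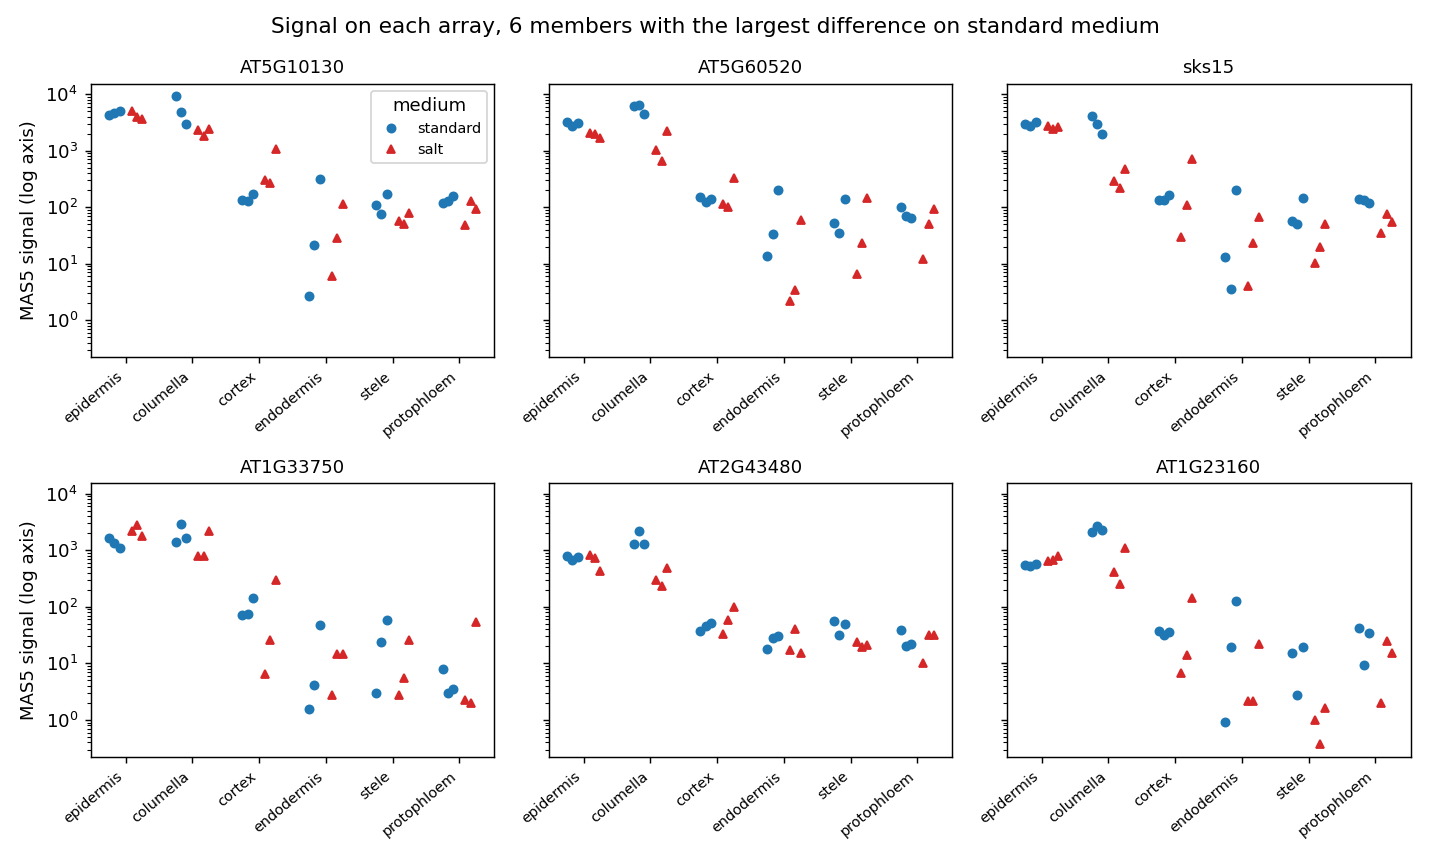
MAS5 signal on each array, on a log axis, for the 6 members with the largest outer-minus-inner difference on standard medium, by population and medium. The lowest outer array of AT5G10130 is at 1810, and for AT5G10130 and sks15 the highest inner salt array is cortex replicate 3, at 1073 and 725.

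The group of 6 genes annotated as related to late embryogenesis abundant (LEA) proteins, a class first known from drying seeds, had a median difference of 2.33 on standard medium and 2.50 with salt, and 4 of 6 were called above every inner population on the salt arrays. AT5G60520 and AT5G60530, which lie next to each other in the genome, had standard differences of 4.29 and 3.40. AT5G60520 had 3148, 2756 and 3135 in epidermis and 6272, 6354 and 4387 in columella on standard medium, and 2032, 1992 and 1680 and 1037, 647 and 2222 with salt. Its inner arrays reached 203 on standard medium and 330 with salt, below every outer array. AT5G60520 fell in columella by 2.27 (SE 0.65, adjusted p = 0.0187), a call lost without columella standard replicate 1 or 2 or columella salt replicate 1 or 2 (adjusted p = 0.0627 to 0.141), and was the single member of the group called in either outer population. AT5G60530 had 2890, 2895 and 4015 in epidermis and 11534, 7056 and 6755 in columella on standard medium, and 6452, 7808 and 6625 and 7742, 9425 and 6358 with salt. The epidermis salt arrays of AT5G60530 lay above the standard ones, but the value of 1.10 (SE 0.71) was not called (adjusted p = 0.270).

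The gene with the highest columella signals of the group, AT5G54370, had 17096, 11964 and 7903 there and 4857, 4546 and 6011 in epidermis on standard medium. Its inner arrays were also high, with a highest value of 3555 on standard medium and 8079 on cortex salt replicate 3, so AT5G54370 was called in 5 of the 8 contrasts. AT3G19430 had 1720, 1761 and 2520 in epidermis and 15093, 8941 and 7354 in columella on standard medium, and 6224, 5300 and 5071 and 10274, 11128 and 7305 with salt. AT3G19430 was called in all 8 contrasts, with a difference of 3.12. Its cortex arrays were 82.1, 91.3 and 108 on standard medium and 194, 313 and 3721 with salt, so the mean of the cortex salt arrays rests on replicate 3. AT1G54890 had the smallest difference of the 6, with 1.28 on standard medium and 0.21 with salt, and 5 of the 8 contrasts were called.

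Among 3 class III peroxidases, secreted enzymes that make or use hydrogen peroxide in the wall, 2 were called above every inner population. AT2G43480 had 786, 663 and 752 in epidermis and 1314, 2182 and 1286 in columella on standard medium, and 823, 746 and 433 and 297, 234 and 483 with salt. Its inner arrays stayed at or below 55.5 on standard medium and 99.5 with salt, under all outer arrays. AT2G43480 fell in columella by 2.20 (SE 0.32, adjusted p = 3.4e-05), and its value in epidermis was -0.18 (SE 0.32, adjusted p = 0.721). AT5G24070 had 484, 457 and 633 in epidermis and 1215, 460 and 668 in columella on standard medium, and 1759, 1563 and 1926 and 1721, 1787 and 782 with salt. AT5G24070 rose in epidermis by 1.72 (SE 0.64, adjusted p = 0.0445), but the call was lost when any of the 6 epidermis arrays was left out (adjusted p = 0.0652 to 0.117) or the GAPDH ratio was a covariate (adjusted p = 0.274). The third, AT2G39040, was called in 6 of the 8 contrasts, with inner arrays as high as 1224 on stele standard replicate 3.

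The 5 members with jacalin-type lectin domains, which bind sugars, were high in both outer populations, but 1 of 5 was called above every inner population on the salt arrays. AT1G52050, AT1G52060 and AT1G52070 are neighbours in the genome and close relatives, so their probe sets may share signal. AT1G52070 had 4150, 3563 and 4474 in epidermis and 9682, 7240 and 6338 in columella on standard medium, and 7278, 7775 and 6037 and 6343, 9427 and 6139 with salt. Its inner arrays ran up to 1742 on endodermis standard replicate 3 and to 5617 on cortex salt replicate 3, while the medians were 419 and 898. The outer arrays of AT1G52070 still lay above all inner ones, and 6 of the 8 contrasts were called. On cortex salt replicate 3, AT1G52050 reached 5032 and AT1G52060 reached 6540, against 280 and 709 and against 238 and 747 on replicates 1 and 2. AT5G35940 was the lectin called in all 8, with a difference of 2.40 on standard medium and 2.25 with salt. In limma's test 0 lectins were called for a salt change in epidermis or columella, and 0 had an unadjusted p under 0.05 in either.

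Defence-type members were 3 chitinases, which cut a polymer of fungal walls, and a PR1-type protein, and 3 of these 4 were called above every inner population. AT2G43610 had 7590, 7934 and 8900 in epidermis and 5539, 3943 and 3764 in columella on standard medium, and 7873, 8094 and 6942 and 2660, 2933 and 3324 with salt. Its call with salt was narrow (largest adjusted p-value 0.0492), and cortex salt replicate 3, at 3344, lay above the columella arrays. The adjacent AT2G43600 had 1157, 1259 and 1436 in epidermis and 372, 285 and 864 in columella on standard medium, and 2310, 2592 and 1964 and 77.8, 49.5 and 317 with salt. The epidermis salt arrays of AT2G43600 were all above the columella ones, by 4.17 on the log2 scale (SE 0.90, adjusted p = 0.000703), the largest such difference among the members with 1 named gene that were called. The third chitinase, AT1G56680, fell in columella by 1.77 (SE 0.45, adjusted p = 0.00968). The PR1-type gene AT1G50060 had 14070, 7887 and 7158 in columella and 1937, 1531 and 2097 in epidermis on standard medium, and a difference of 2.51 there and 2.44 with salt.

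Among 4 members linked to auxin, the growth hormone that columella cells redirect when the root is turned, both genes of the GH3 family, whose enzymes join amino acids to hormones such as auxin and jasmonate, were called above every inner population. AT1G23160 had 554, 532 and 577 in epidermis and 2153, 2651 and 2337 in columella on standard medium, and 643, 687 and 787 and 412, 259 and 1114 with salt. Its inner arrays reached 128 on standard medium and 141 with salt, under every outer array. AT1G23160 fell in columella by 2.23 (SE 0.58, adjusted p = 0.0109), a call lost without columella salt replicate 1 or 2 (adjusted p = 0.0527 and 0.113), and its value in epidermis was 0.34 (SE 0.58, adjusted p = 0.719). AT5G51470 had 174, 140 and 150 in epidermis and 2380, 3889 and 2858 in columella on standard medium, and 140, 182 and 138 and 649, 609 and 1626 with salt. AT5G51470 fell in columella by 1.77 (SE 0.42, adjusted p = 0.00591), a call lost without columella salt replicate 2 (adjusted p = 0.0671), and still was 2.39 higher there than in epidermis (SE 0.42, adjusted p = 7.2e-05).

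IAA33 (AT5G57420), of the family of auxin response repressors, had 203, 121 and 82.9 in epidermis and 2619, 2822 and 1331 in columella on standard medium, and 183, 274 and 117 and 960, 507 and 1618 with salt. With salt, columella was above epidermis on every array of IAA33, by 2.25 (SE 0.47, adjusted p = 0.000479). The inner arrays of IAA33 reached 76.4 and 147, and 7 of the 8 contrasts were called. WAG2 (AT3G14370), a kinase that acts on auxin transport proteins, had 896, 731 and 1006 in epidermis and 960, 1922 and 691 in columella on standard medium, and 1255, 1395 and 1155 and 183, 124 and 882 with salt. The columella salt arrays of WAG2 were spread over a range that overlapped the inner arrays, which reached 602, and the difference went from 2.06 to -0.02.

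All 3 members placed in the group of transcription factors were called above every inner population. IAA33, counted as a transcription factor by its symbol, was placed with the auxin genes and was not called above every inner population. AT1G21340, of the DOF family of zinc finger proteins, had 151, 104 and 166 in epidermis and 2076, 1784 and 1599 in columella on standard medium, and 726, 500 and 641 and 1328, 1018 and 2469 with salt. Its inner arrays stayed at or below 33.7 on standard medium and reached 258 on cortex salt replicate 3. AT1G21340 rose in epidermis by 2.03 (SE 0.51, adjusted p = 0.00281), and its outer-minus-inner difference went from 2.16 to 3.27. AT1G36060 and AT1G77200, of the ERF family, whose members include regulators of stress genes, had differences of 2.60 and 2.49 on standard medium and 2.37 and 1.88 with salt. Neither was called for a salt change in either outer population, and the value of AT1G36060 in columella was -1.20 (SE 0.49, adjusted p = 0.0912).

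Of 10 members in detoxification and specialised metabolism, 6 were called above every inner population. The terpene synthase gene AT1G33750 had 1670, 1331 and 1108 in epidermis and 1378, 2958 and 1652 in columella on standard medium, and 2194, 2811 and 1822 and 798, 808 and 2173 with salt. Its inner arrays reached 142 on standard medium and 299 with salt. AT1G33750 thus had the largest difference with salt of the members with 1 named gene, 4.09 or 17.0-fold (largest of the 8 adjusted p-values 9.3e-06). The aminotransferase gene AT4G23590 had 1027, 981 and 1240 in epidermis and 2250, 1936 and 1810 in columella on standard medium, and 2689, 2576 and 2546 and 2505, 1678 and 2317 with salt. The epidermis salt arrays of AT4G23590 lay above the standard ones, but the value of 1.26 (SE 0.57) was not called (adjusted p = 0.100). Its difference was 3.85 with salt.

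AT1G74010, of the family of strictosidine synthase-like proteins, had 69.3, 75.6 and 69.8 in epidermis and 1148, 733 and 1326 in columella on standard medium. With salt the AT1G74010 signals were 705, 731 and 707 in epidermis and 978, 1745 and 982 in columella. AT1G74010 rose in epidermis on every array, by 3.06 (SE 0.50, adjusted p = 2.4e-05), and in columella its value was 0.19 (SE 0.50, adjusted p = 0.824). The BAHD acyltransferase gene AT5G47950 had 694, 663 and 905 in epidermis and 643, 362 and 363 in columella on standard medium, and 548, 622 and 725 and 43.3, 45.0 and 118 with salt. All 3 columella salt arrays of AT5G47950 lay below the highest inner salt array, 264, and its difference of -1.27 was the lowest of the members. AT5G47950 fell in columella by 2.54 (SE 0.56, adjusted p = 0.00316). The carboxylesterase gene CXE20 (AT5G62180) fell in epidermis by 2.12 (SE 0.40, adjusted p = 0.000140), from 789, 735 and 814 to 183, 178 and 141. In columella CXE20 went from 334, 351 and 480 to 169, 158 and 184, a value of -1.10 (SE 0.40, adjusted p = 0.0581).

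Glutathione transferases of the tau class, which attach glutathione to reactive compounds, gave 3 members among 13 probe sets with such a symbol. GSTU22 (AT1G78340) had 2133, 2258 and 3115 in epidermis and 4976, 3338 and 2885 in columella on standard medium, and 8374, 8604 and 7717 and 8561, 7715 and 6678 with salt. GSTU22 rose in epidermis by 1.73 (SE 0.45, adjusted p = 0.00447, or 0.0625 with the GAPDH ratio as a covariate) and in cortex by 1.67 (SE 0.45, adjusted p = 0.00506), and its value in columella was 1.06 (SE 0.45, adjusted p = 0.109). GSTU25 (AT1G17180) had signals of at least 3179 on all outer arrays and was called in all 8 contrasts. The inner arrays were also high with salt, at 1051 to 3752 for GSTU25 and 495 to 3982 for GSTU22. On standard medium they were 333 to 1535 for GSTU25 and 85.3 to 1075 for GSTU22. GSTU20 (AT1G78370) had low signals, 58.8, 66.8 and 83.2 in epidermis on standard medium and 4.68, 20.1 and 26.1 with salt, which cannot be told from background without detection calls. GSTU20 fell by 1.43 in epidermis (SE 0.41, adjusted p = 0.00922), a call lost without epidermis salt replicate 1 (adjusted p = 0.0774) and with the GAPDH ratio as a covariate (-0.16, adjusted p = 0.878). Of the other symbol families, cell wall remodelling enzymes had 2 members among 46 probe sets (EXPA4 and EXPA9) and transcription factors 1 among 71 (IAA33). The families of wall structural proteins, peroxidases by symbol, cytochromes P450, glucosyltransferases, acyltransferases and lipid enzymes, proteases and inhibitors, membrane transporters, kinases, and germin-like and small secreted proteins held 0 members by symbol. The search by symbol misses members known by locus alone, such as the cytochrome P450 gene AT1G73340, and for acyltransferases and lipid enzymes it found 0 probe sets in all.

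Both transporter members, AT1G15170 of the MATE family and the amino acid transporter gene AT5G02180, were called above every inner population. AT1G15170 had 394, 360 and 351 in epidermis and 286, 339 and 244 in columella on standard medium, and 294, 337 and 293 and 403, 387 and 304 with salt. Its inner arrays reached 161 on standard medium and 101 with salt, and its cortex value fell by 0.88 (SE 0.28, adjusted p = 0.0157). The difference of AT1G15170 was 1.00 on standard medium, at the limit of the rule, and 1.98 with salt.

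In epidermis 25 members rose with salt and 14 fell, against 15.6% and 12.6% of all probe sets tested. These are 15.9% and 8.92% of the members, so the share that rose was near the background. The standard arrays that chose the members enter each salt response, so its counts are a description. The median change over the members was 0.32, against 0.07 over all probe sets tested. The largest rise was that of AT5G16230, of the acyl carrier protein desaturase family, which had 215, 168 and 249 on standard medium and 2522, 2487 and 1119 with salt. AT5G16230 rose by 3.11 (SE 0.56, adjusted p = 9.1e-05), while its columella arrays of 302, 178 and 269 became 280, 328 and 360. Among members with 1 named gene, the largest falls after EXPA4 and CXE20 were those of AT5G06270 (1.83, SE 0.32, adjusted p = 7e-05), AT1G06980 (1.74, SE 0.47, adjusted p = 0.00601) and AT5G02420 (1.56, SE 0.39, adjusted p = 0.00276).

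The GAPDH ratio of the epidermis arrays moved with the medium, as given above. With this ratio as a covariate the counts in epidermis were 21 and 10, given here without the share over all probe sets. The members' median change was 0.90, against 0.08 over all probe sets tested. Because ratio and medium moved together in epidermis, this fit cannot separate them well, and a call can be lost without a smaller change. Of the named genes, 7 then lost their epidermis call. AT2G15830 had 0.91 (adjusted p = 0.395), AT1G06980 -1.23 (adjusted p = 0.243) and AT3G27880 0.82 (adjusted p = 0.264), and the others were GSTU20, GSTU22, AT4G26880 and AT5G24070, as given above. GSTU22 and AT4G26880 lost the call at values of 1.81 and 2.45, no smaller than without the covariate. GSTU20 and AT5G24070 lost it at smaller sizes, -0.16 and 1.61. The root cap marker RCPG (AT1G65570) also moved, from 141, 160 and 301 to 3428, 3880 and 3276 in epidermis, a rise of 4.10 (SE 0.85, adjusted p = 0.000440). PASPA3 rose by 2.69 there (SE 0.55, adjusted p = 0.000437). The epidermis markers TRY, EXPA7 and EXPA18 had values of -0.84, -1.21 and -0.99 and were not called (adjusted p = 0.0756, 0.455 and 0.335). Their part in the members' changes was not tested, and in these sorted pools fewer cells of a type and less RNA per cell cannot be told apart. Without epidermis standard replicate 2 the number that rose was 14, and without epidermis salt replicate 1 it was 15. Both are given without the share over all probe sets.

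In columella 4 members rose and 46 fell, against 5.27% and 8.93% of all probe sets tested. These are 2.55% and 29.3% of the members. The median change was -0.75, against -0.23 over all probe sets tested, and the value was below 0 for 119 of the 157. The members that fell furthest among those with 1 named gene were sks15, AT1G48070, AT1G50720, EXPA4 and AT5G47950. AT1G48070 had 2457, 1457 and 2543 in columella on standard medium and 185, 145 and 646 with salt, a change of -2.92 (SE 0.46, adjusted p = 0.000116), while in epidermis it had 112, 89.2 and 173 and then 84.6, 94.3 and 120. Of the 4 that rose, 1 had a named gene, AT2G15830, with 252, 60.4 and 59.0 on standard medium and 783, 570 and 474 with salt, a rise of 2.41 (SE 0.52, adjusted p = 0.00244). The number that fell was 27 without columella salt replicate 1 and 21 without columella salt replicate 2. The number that rose was 2 without columella standard replicate 2, columella salt replicate 1 or columella salt replicate 2. These counts are given without the share over all probe sets, so a shift of the members cannot be told from a shift of all probe sets. Without columella salt replicate 3, the array with the higher members' level, 6 rose and 55 fell, against 7.95% and 15.0% of all probe sets tested. The root cap marker RCPG (AT1G65570) had 8068, 3619 and 5461 in columella on standard medium and 6041, 10258 and 6367 with salt, which overlap.

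**Figure D4:**
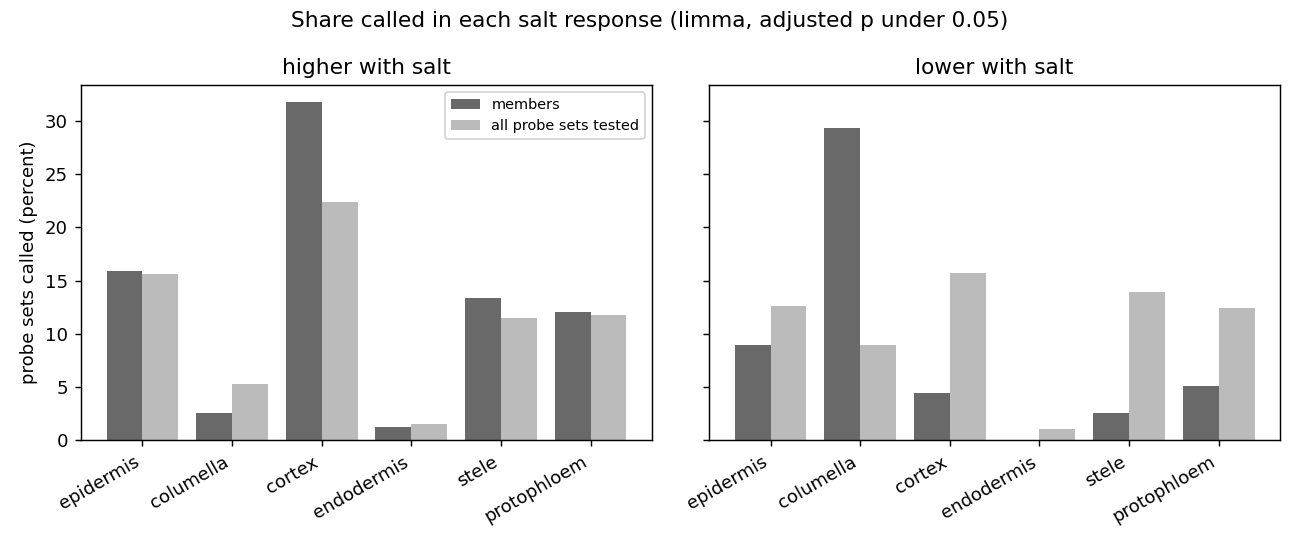
Share of probe sets called higher (left) or lower (right) with salt in each population, in percent, for the 157 members and for all 17633 probe sets tested. In columella 29.3% of the members and 8.93% of all probe sets were called lower, and in epidermis the shares called higher were 15.9% and 15.6%.

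Most members were called in neither outer population (83 of 157, against 63.5% of all probe sets tested). The largest class among the others was 34 members that fell in columella and were not called in epidermis (6.30%), followed by 18 that rose in epidermis and were not called in columella, which at 11.5% is near the 12% of all probe sets tested. A fall in both was called for 8 members (2.18%), among them EXPA4, AT5G06270, AT1G06980, AT5G60630 and AT1G14210, the last pair named after their values were seen. The columella call of AT1G06980 was lost without columella standard replicate 2 (adjusted p = 0.0818) or columella salt replicate 1 or 2 (0.0677 and 0.0685), and that of AT5G06270 in a fit to the 2 groups alone (adjusted p = 0.0603). A rise in both was called for 3 members (3.23%), of which AT2G15830 has a named gene. For 4 members (0.442%) a rise in epidermis and a fall in columella were called, and AT4G01240, named after its values were seen, is the one with a gene. AT4G01240 had 430, 407 and 524 in epidermis and 1441, 1412 and 1842 in columella on standard medium, and 1157, 920 and 951 and 610, 444 and 1327 with salt. AT4G01240 rose by 1.13 (SE 0.35, adjusted p = 0.0149) in epidermis and fell by 1.11 (SE 0.35, adjusted p = 0.0331) in columella.

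In the contrast of both responses, the salt response was called higher in epidermis than in columella for 30 members and lower for 2. The members' shares were 19.1% and 1.27%, against 7.23% and 3.24% of all probe sets tested. The standard arrays that chose the members enter this contrast too, so its counts are a description. Among members with 1 named gene that were called, the difference of responses was largest for AT1G50720 at 3.74 (SE 0.60, adjusted p = 0.000182), the cytochrome P450 gene AT1G73340 at 3.16 (SE 0.76, adjusted p = 0.00679) and AT1G74010 at 2.87 (SE 0.70, adjusted p = 0.00808). For sks15 it was 2.92 (SE 0.97), at an adjusted p on the threshold of 0.05, and it was not called. Of the 2 with a lower response in epidermis, AT4G19520 has a named gene, and its outer signals were at most 101. The number with a higher response was 19 without columella salt replicate 1. The number with a lower response was 1 without epidermis standard replicate 2, columella standard replicate 1, epidermis salt replicate 2 or columella salt replicate 2, and 4 without columella salt replicate 3. Counts with an array left out are given here without the share over all probe sets.

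**Figure D5:**
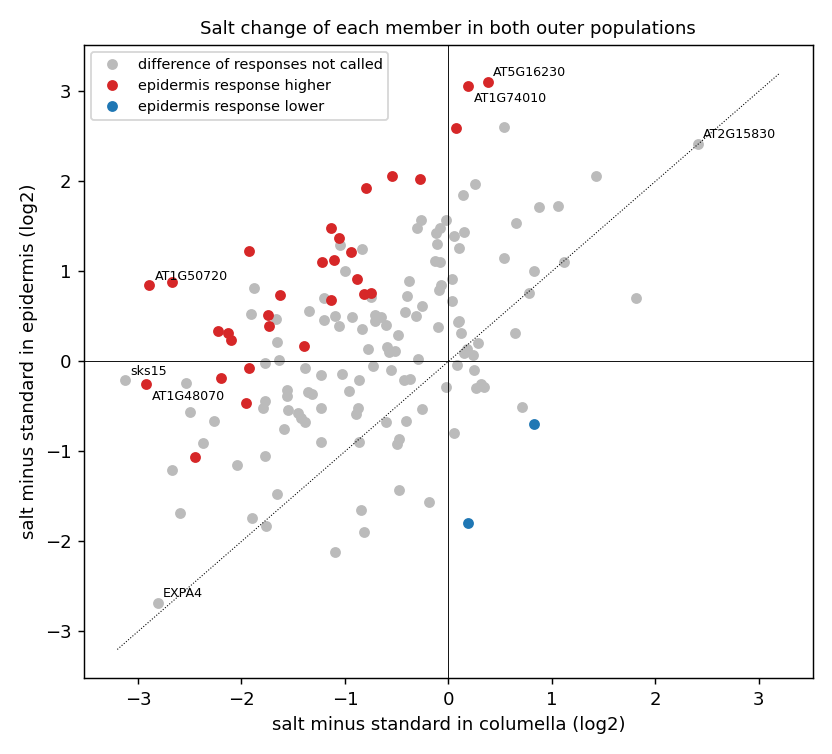
Each point is 1 of the 157 members, with the salt change in columella on the x axis and in epidermis on the y axis, in log2 units, coloured by the test of the difference between both responses. Most points lie above the dotted line of equal change; 30 are called with a higher response in epidermis and 2 with a lower one.

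For part of the members, the outer population with the higher level differed between the media. The median of epidermis minus columella was -0.39 on standard medium, against -0.24 over all probe sets tested, and 0.39 with salt, against 0.02. Without columella salt replicate 3 the median with salt was 0.55, against 0.06. Columella was higher for 97 members on standard medium and for 53 with salt. The order turned from columella to epidermis for 53 members, from epidermis to columella for 9, and was the same for 95. These counts of order are a description, given without the share over all probe sets. The standard arrays chose the members, and the median over all probe sets tested moved in the same direction. On the salt arrays the difference was called with epidermis higher for 38 members and with columella higher for 16, against 15.5% and 13.7% of all probe sets tested. Among members with 1 named gene, the largest with epidermis higher were AT2G43600, AT5G47950 at 3.04 (SE 0.56, adjusted p = 0.000130), sks15 at 2.97 (SE 0.69, adjusted p = 0.00140) and AT2G17080 at 2.91 (SE 0.70, adjusted p = 0.00189). Those with columella higher were AT5G51470, IAA33, AT3G18230 at -1.96 (SE 0.38, adjusted p = 0.000207) and AT1G06980 at -1.91 (SE 0.47, adjusted p = 0.00266).

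In the inner populations, the cortex was nearest to the outer ones. Cortex had the highest inner mean for 56 members on standard medium (35.7%, against 22.6% of all probe sets tested) and for 112 with salt (71.3%, against 35.2%). Without cortex salt replicate 3 it was 87 members with salt (55.4%, against 36.9%). In cortex 50 members rose with salt and 7 fell, against 22.4% and 15.7% of all probe sets tested. Without cortex salt replicate 3 the numbers were 31 and 14, against 24.1% and 19.6%, and the members' median change was 0.31 in place of 0.74. The share of members that rose was then 19.7%, below that of all probe sets tested. Some markers moved on the cortex salt arrays. The cortex marker AT1G09750 fell by 3.40 (SE 0.36, adjusted p = 6.3e-08), from 3040, 2218 and 2691 to 237, 207 and 261. AT1G09750 made up nearly all of the sum of 2 cortex markers, which went from 2234 to 3049 down to 229 to 278. The other cortex marker, AT1G62500, did not pass the filter on low signals. AT1G62500 had 8.90, 15.7 and 24.6 in cortex on standard medium and 33.6, 22.6 and 17.3 with salt. The sum of 3 epidermis and root hair markers went from 112 to 152 up to 423 to 844, and that of 2 root cap markers from 56.0 to 76.1 up to 290 to 2529. PASPA3 (AT4G04460) rose in cortex by 2.73 (SE 0.55, adjusted p = 0.000391), and EXPA7 had 69.0, 49.4 and 56.7 and then 258, 239 and 632, a value of 2.27 (SE 1.09) that was not called (adjusted p = 0.0975). Their part in the members' cortex values was not tested.

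Some members rose in cortex on all arrays. AT2G15830 had cortex signals of 0.750, 1.82 and 9.70 on standard medium and 286, 383 and 188 with salt, a rise of 3.88 (SE 0.52, adjusted p = 2e-06). AT3G27880 had 198, 211 and 227 and then 1519, 2045 and 1158, a rise of 2.76 (SE 0.34, adjusted p = 6.3e-07), which brought its cortex arrays into the range of its outer ones. AT3G51750, named after its values were seen, had 14.0, 5.09 and 7.07 in cortex and then 544, 519 and 134, a rise of 3.86 (SE 0.43, adjusted p = 1.4e-07). AT3G51750 was 1 of 2 members called higher in endodermis, where 0 were called lower (1.50% and 1.02% of all probe sets tested), with 9.89, 17.7 and 27.0 and then 261, 268 and 121, a rise of 2.72 (SE 0.43, adjusted p = 0.000201). Its values in epidermis and columella were 0.32 (adjusted p = 0.634) and 0.12 (adjusted p = 0.874), and the outer-minus-inner difference of AT3G51750 went from 2.33 to -0.16. At an unadjusted p under 0.05, limma gave 7 members lower in endodermis (4.46%, against 6.91% of all probe sets tested).

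In stele 21 members rose and 4 fell, against 11.5% and 13.9% of all probe sets tested, and in protophloem 19 rose and 8 fell, against 11.8% and 12.4%. The 4 that fell in stele included EXPA4 at -1.28 (adjusted p = 0.00880) and hemb2 at -0.86 (adjusted p = 0.0499), the latter named after its values were seen. The members' median change was 0.04 in stele, -0.03 in protophloem and -0.15 in endodermis, against -0.23, -0.07 and -0.08 over all probe sets tested. Without stele standard replicate 3, 30 members rose and 3 fell in stele, against 14.0% and 18.9%, with a median of 0.36. Without endodermis standard replicate 3, 2 rose and 0 fell in endodermis, against 1.22% and 0.851%, with a median of 0.19 against -0.06 over all probe sets tested.

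Some members lie close together in the genome, by the gene order of the RefSeq annotation of TAIR10.1. Among the 90 members with 1 named gene, 15 had another member within 5 genes, in 9 pairs, and several pairs are of 1 gene family, where related sequences may share probe signal. Next to the lectin genes AT1G52050, AT1G52060 and AT1G52070, AT1G52100 had a difference of -0.04 on standard medium and was no member. Beside the chitinase genes AT2G43600 and AT2G43610, AT2G43580, AT2G43590 and AT2G43620 had differences of -0.34, 0.01 and -0.20. Between GSTU22 and GSTU20, GSTU21 had -0.14, and GSTU23, on the other side of GSTU22, had -4.32. The difference thus was not shared by all measured neighbours. AT2G17070 and AT2G17080, adjacent genes of a family of unknown function, had differences of 2.42 and 1.68 on standard medium and of 0.06 and -0.64 with salt, and AT2G17070 fell in columella by 2.37 (SE 0.58, adjusted p = 0.00724).

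A gene outside the members met the same call with salt. RCPG (AT1G65570), which helps root cap cells to separate, had an outer-minus-inner difference of 0.16 on standard medium and 3.16 with salt, where it was called in all 8 contrasts. Its columella value was 0.43 (SE 0.85, adjusted p = 0.760), and it rose in cortex by 3.07 (SE 0.85, adjusted p = 0.00552), where replicate 3 had 1552 against 160 and 210.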

How the data were processed

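The deposited table holds a linear intensity for each probe set on each array, from MAS5 per the submitters' processing notes, whose version is not given in the sources used here. Each array's mean, trimmed by 2% at both ends, was 250.02 to 250.03, so the deposited arrays share 1 scale, and a shift of most transcripts together cannot be seen. Array medians were 62.1 to 95.6. RNA was amplified in 2 cycles, per the labels' protocols. Detection calls were not used, so a low signal cannot be told from background (the 40th percentile of the arrays was 32.391 to 66.284), and 3 arrays per group limit the precision. Replicates correlated at 0.890 to 0.989.

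Intensities were transformed as log2(signal + 16), which understates changes of low signals. Of 22810 probe sets, 64 controls were left out, and a probe set was tested when it exceeded the array's 40th percentile on 3 or more arrays. limma 3.58.1 in R 4.3.3 fitted a mean per group over all 36 arrays (eBayes with a mean-variance trend, 24 residual degrees of freedom), and two-sided p-values were adjusted by Benjamini-Hochberg and called under 0.05. Tables and figures used Python 3.11.15, pandas 2.3.3, numpy 2.4.6 and matplotlib 3.10.9. The code was tested on simulated data.

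The members, the contrasts and all lists were chosen with earlier results of these data known, and the role groups after the members were known. Genes are named from the platform table, for probe sets with exactly 1 gene (13513, against 503 with several and 8730 with none), with RefSeq names of assembly TAIR10.1. Sequences and coordinates were not used here, so probe sets of close relatives are uncertain. Named were, among members with 1 gene, the 10 largest differences on standard medium and the 8 largest on the salt arrays among those called in all 8 contrasts. Further names were the 5 largest rises and falls in each outer population among those called without overlap of arrays, the 4 largest called differences each way between the outer populations on the salt arrays, the 3 probe sets on each side of the limit, and up to 4 members of each of 12 symbol families. Members of the role groups were also described, which the rule did not name.

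Alternatives were offsets of 1 and 64, no filter, a filter at the 50th percentile on all arrays of a group, quantile normalization, fits to the groups compared alone, the GAPDH ratio as a covariate, the replicate number as a block, and each array left out in turn. Using replicates 1 and 2 only was added after the data were seen. Deviations from group means correlated between same-numbered arrays at -0.0365 to 0.448 over 11 pairs of groups. All 3 numbers were over 0.1 in 3 of these 11 (columella with stele and with protophloem, and epidermis with endodermis, all with salt), so the numbers were not taken as pairs throughout.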

Additional observations from a re-analysis of the deposited data

Results flagged for a closer look

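The salt response differed between epidermis and columella, by the test of the difference itself (limma, adjusted p under 0.05), for 30 members with the higher response in epidermis and for 2 with the lower. The standard arrays that chose the members enter this contrast, so the counts are a description. Of the members named by the rule, 7 were among them, all with the higher response in epidermis. The difference of responses, epidermis minus columella, was 3.74 for the STIG1-like gene AT1G50720, 2.87 for the strictosidine synthase-like gene AT1G74010 and 2.73 for AT5G16230 of the desaturase family. It was 2.67 for AT1G48070, 2.56 for the GH3 gene AT1G23160, 2.31 for the DOF gene AT1G21340 and 2.02 for the peroxidase gene AT2G43480. Groups of 3 arrays were not tested for outliers.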

How the results depend on the processing

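The number of members by the rule was 181 with an offset of 1, 121 with 64 (all among the 157), 159 with quantile normalization (149 shared), 167 with replicates 1 and 2 only (146 shared) and 152 to 161 with an array left out. The 84 members above every inner population on the salt arrays became 73 to 99 over the other settings, against 1.04% to 1.72% of all probe sets tested. With an offset of 1, 13 members rose in epidermis, 26 fell in columella, and 13 had a higher and 0 a lower response in epidermis; with 64, 47 had a higher one. The stricter filter gave 1 lower response. Fits to the compared groups alone gave 62 higher and 35 lower in epidermis, 2 and 28 in columella, and 58 higher responses. Replicates 1 and 2 only gave 45 higher in epidermis, 8 higher and 76 lower in columella, 63 with epidermis above columella on the salt arrays, and 76 higher and 5 lower responses. For the salt changes and for epidermis against columella, counts in this section are given without the share over all probe sets. A shift of the members in them thus cannot be told from a shift of all probe sets, and its cause was not tested. With the replicate number as a block, where same-numbered arrays deviated together in 3 of 11 pairs of groups and every array correlated best with its own number in 1, the counts were 92 above every inner population, 29 and 15 in epidermis, 4 and 53 in columella, 42 and 17 between the outer populations, and 36 and 2 for the responses.

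Over the arrays left out in turn, the counts ran from 68 to 92 above every inner population, 14 to 31 higher and 11 to 16 lower in epidermis, and 2 to 6 higher and 21 to 55 lower in columella. Epidermis was above columella on the salt arrays for 27 to 47 and below for 12 to 18, and its response was higher for 19 to 39 and lower for 1 to 4. No salt change of a named gene went from a call in one direction to a call in the other. Values that were not called can change sign between settings, and such changes were not counted. Of the salt changes of named genes under the settings other than left-out arrays, 602 stayed on their side of the threshold, called or not, 17 lost a call and 31 gained one. Of the 17, 6 were lost with an offset of 1 (AT5G60520, AT1G23160, AT1G06980 and AT5G51470 in columella, AT5G24070 and AT4G26880 in epidermis; adjusted p = 0.0601 to 0.186), 7 with the GAPDH ratio as a covariate, 2 in fits to the compared groups alone (AT5G06270 and AT1G06980 in columella), and AT5G24070 in epidermis without a filter and with quantile normalization. Quantile normalization moved the median over all probe sets from -0.23 to -0.04 for the columella response and from 0.27 to 0.01 for the difference of responses, while the members' medians were -0.70 and 1.12, from -0.75 and 1.02. Signals near background, as for GSTU20 and the inner arrays of most members, depend on the offset.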
